A study of Mus musculus with 78 samples.

Results

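The acute-phase genes Lcn2, Serpina3f, Serpina3g and Serpina3n were followed through RNA sequencing of mouse cerebral arteries. They were taken by gene name from the protein-coding rows of the expression table, 4 of 22046 protein-coding genes. They were chosen by their measured levels across the 20 groups and the single libraries, so their own levels and differences are given as descriptions, without tests. The 78 libraries came from male wild-type C57Bl6 mice. The mice ate ad libitum (AL) or kept to intermittent fasting (IF) for 3 months. Surgery followed, either sham or bilateral carotid artery stenosis (BCAS), in which both carotid arteries are narrowed and the brain receives less blood over a long time. Arteries were collected 1, 7, 14, 21 or 30 days later, which made 20 groups of 4 libraries each, except BCAS AL day 1 and sham IF day 7 with 3. With the days joined, each AL arm and each IF arm held 19 or 20 libraries. The sources used here give neither the fasting schedule nor the age of the mice, and day 7 rests on the group labels alone.

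Acute-phase proteins are made in larger amounts within hours of injury, infection or surgery. The classic source is the liver, but endothelium, astrocytes, smooth muscle and neutrophils can make them too. The drive comes from cytokines: interleukin 6 and its relatives act through STAT3 and C/EBP factors, interleukin 1 and TNF act through NF-kB, and glucocorticoids add to both or restrain them. Lcn2 encodes lipocalin 2, a secreted protein that binds the iron-carrying siderophores of bacteria and that neutrophils also store in granules. The Serpina3 genes encode serpins, protease inhibitors related to human alpha-1-antichymotrypsin, which is 1 gene in humans and a cluster of copies in mice. Serpina3n inhibits granzyme B and cathepsin G and, with Lcn2, is widely used as a marker of reactive astrocytes. Serpina3g inhibits lysosomal cathepsins, and little is established about Serpina3f.

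Lcn2 (ENSMUSG00000026822) lies on the minus strand at chr2:32384633-32388252 (GRCm38). The other 3 genes lie on the plus strand of chromosome 12 within the Serpina3 cluster. Serpina3f (ENSMUSG00000066363) is at chr12:104214544-104221129, Serpina3g (ENSMUSG00000041481) at chr12:104236245-104241939 and Serpina3n (ENSMUSG00000021091) at chr12:104406729-104414329. The sequence just before each start site is shown because the 4 genes varied together between libraries. All 4 had an entry in the RefSeq promoter table (GRCm38.p6), which covers 250 bases before and 50 after a start. The Lcn2 stretch is chr2:32387798-32387989 on the minus strand and ends 58 bases before the RefSeq start, since the bases after it lie in a first exon. Part of it is also an exon of a longer annotated Lcn2 transcript. Its capitals mark a match to the C/EBP motif TTNNGNAA, the recognition sequence of the factors named above.
Lcn2: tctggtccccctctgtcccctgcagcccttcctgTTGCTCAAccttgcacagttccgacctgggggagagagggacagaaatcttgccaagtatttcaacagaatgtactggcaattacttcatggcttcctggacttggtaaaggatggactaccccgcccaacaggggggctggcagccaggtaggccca
The Serpina3f stretch is chr12:104214294-104214543 and the Serpina3n stretch is chr12:104406458-104406707, both on the plus strand. Capitals mark the 4 runs of at least 9 bases that these 2 stretches share, 47 bases in all, of which the longest has 15.
Serpina3f: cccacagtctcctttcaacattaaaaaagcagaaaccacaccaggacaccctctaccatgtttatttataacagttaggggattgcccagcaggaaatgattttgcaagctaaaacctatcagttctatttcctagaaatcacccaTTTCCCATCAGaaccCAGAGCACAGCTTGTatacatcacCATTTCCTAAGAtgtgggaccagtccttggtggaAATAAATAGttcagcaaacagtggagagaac
Serpina3n: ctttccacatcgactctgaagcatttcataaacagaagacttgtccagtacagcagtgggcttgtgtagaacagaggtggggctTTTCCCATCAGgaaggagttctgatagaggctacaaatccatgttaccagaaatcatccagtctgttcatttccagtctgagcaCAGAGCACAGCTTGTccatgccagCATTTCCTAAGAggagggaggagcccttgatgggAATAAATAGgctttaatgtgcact
The Serpina3g stretch is chr12:104235897-104236146 on the plus strand. Its capitals mark the 4 runs of at least 9 bases that it shares with Serpina3f, 49 bases in all, of which the longest has 19.
Serpina3g: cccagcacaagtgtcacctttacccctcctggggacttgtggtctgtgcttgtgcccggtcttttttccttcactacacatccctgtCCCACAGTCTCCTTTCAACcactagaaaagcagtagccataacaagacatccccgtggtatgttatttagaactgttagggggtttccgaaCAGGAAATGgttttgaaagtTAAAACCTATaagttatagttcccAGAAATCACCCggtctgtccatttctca

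Aligned over these windows, Serpina3f and Serpina3n were 62.7% identical, Serpina3f and Serpina3g 42.5%, and Serpina3g and Serpina3n 38.0%. The Lcn2 window, from another chromosome, was 43.7%, 47.4% and 45.9% identical to those of Serpina3f, Serpina3g and Serpina3n. Only Serpina3f and Serpina3n thus stood above that level. The RefSeq start equals the start in the files for Serpina3f alone. For Serpina3g, Serpina3n and Lcn2 the starts differ, so these windows are set by RefSeq and not by the positions given above. Motifs were searched on both strands of the 300-base windows, and overlaps between motifs were allowed. The STAT motif TTCNNNGAA was found in Serpina3f (TTCCTAGAA, 121 bases before the start) and in Serpina3g (TTCCCAGAA, 33 before), and 8.47% of 27025 promoters held it. The C/EBP motif TTNNGNAA was found in all 4 windows, and 40.7% of promoters held it. The glucocorticoid receptor motif was found in Serpina3n alone of the 4 (GCACAGCTTGTCC, 78 before), where it overlaps the 15-base run shared with Serpina3f, and 0.463% of promoters held it. The NF-kB motif was found in Serpina3g alone (GGGGGTTTCC, 85 before, 8.18% of promoters) and the interferon response motif ISRE in none of the 4 (3.49% of promoters). A match describes these letters only.

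Levels are FPKM, fragment numbers corrected for the length of the gene and the depth of the library, so that levels of different genes can be compared. Lcn2 was the most abundant of the 4, with a lowest, median and highest level of 1.31, 17.5 and 228 FPKM. Serpina3n followed with 1.09, 3.07 and 21.8 FPKM, and Serpina3g with 0.0582, 1.51 and 12.6. Serpina3f ran from 0 over a median of 0.249 to 8.68 FPKM. Lcn2 and Serpina3n thus reached 1 FPKM in all 78 libraries, Serpina3g in 51 and Serpina3f in 17. Serpina3f was at 0 in 4 libraries, where 3 fragments would have been 0.056 to 0.084 FPKM, and the median of 12 fragments makes its low values imprecise. Lcn2 rested on 56 to 11370 fragments per library, Serpina3n on 45 to 838 and Serpina3g on 2 to 530. Such floors cover counting error only.

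**Figure D1:**
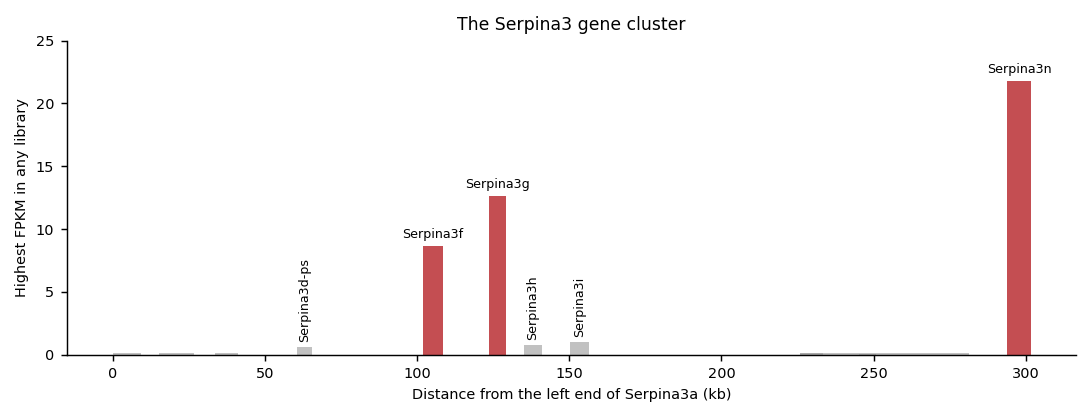
The Serpina3 genes and pseudogenes by distance from the left end of Serpina3a (kb), with the highest FPKM in any library as bar height and the gene's extent as bar width (members red, other genes grey, genes under 0.5 FPKM not named). Serpina3n, Serpina3g and Serpina3f stand at 21.8, 12.6 and 8.68 FPKM, and no other gene of the cluster passes 0.971.

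Of the 7 other protein-coding Serpina3 genes, none reached 1 FPKM in any library. Serpina3i came closest with 0.971 FPKM, and Serpina3j was at 0 in all 78 libraries. The copies resemble each other: 10.6% of the 50-base words in Serpina3f transcripts also occur in another Serpina3 gene, as do 15.5% in Serpina3g, 6.90% in Serpina3n and 0% in Lcn2. The sources used here do not say how fragments that fit several copies were counted, so the levels of Serpina3f and Serpina3g in particular are uncertain to that extent.

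Lcn2 stood far apart between libraries of the same group. In sham AL arteries its level was 74.8, 51.5, 16.1 and 20.5 FPKM on day 1, 21.9, 8.29, 70.2 and 1.31 on day 7, 228, 176, 17.97 and 18.02 on day 14, 4.32, 162, 24.9 and 46.8 on day 21, and 52.1, 9.42, 7.11 and 2.48 on day 30. In sham IF arteries it was 21.7, 36.8, 18.4 and 17.1 FPKM on day 1, 2.88, 193 and 10.96 on day 7, 4.68, 4.78, 4.69 and 7.83 on day 14, 39.0, 32.9, 26.4 and 135 on day 21, and 23.3, 4.34, 5.30 and 5.17 on day 30. Within a group the highest library was up to 67.1 times the lowest (sham IF day 7), and in 6 of the 20 groups it was over 10 times the lowest. In BCAS AL arteries Lcn2 was at 131, 24.8 and 54.5 FPKM on day 1, 49.2, 10.4, 19.3 and 7.16 on day 7, 34.6, 33.9, 13.4 and 19.0 on day 14, 39.7, 3.28, 3.76 and 218 on day 21, and 26.9, 30.5, 5.40 and 4.27 on day 30. In BCAS IF arteries it was at 29.7, 22.1, 30.2 and 22.4 FPKM on day 1, 4.70, 7.04, 6.73 and 11.5 on day 7, 3.52, 5.63, 6.53 and 8.24 on day 14, 14.8, 6.44, 17.8 and 4.02 on day 21, and 7.39, 7.51, 14.4 and 4.42 on day 30. The high libraries were thus scattered over days and arms. A level of 100 FPKM, a limit set after the values were seen, was passed by 7 libraries: 3 were sham AL, 2 were sham IF and 2 were BCAS AL, while BCAS IF ended at 30.2.

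**Figure D2:**
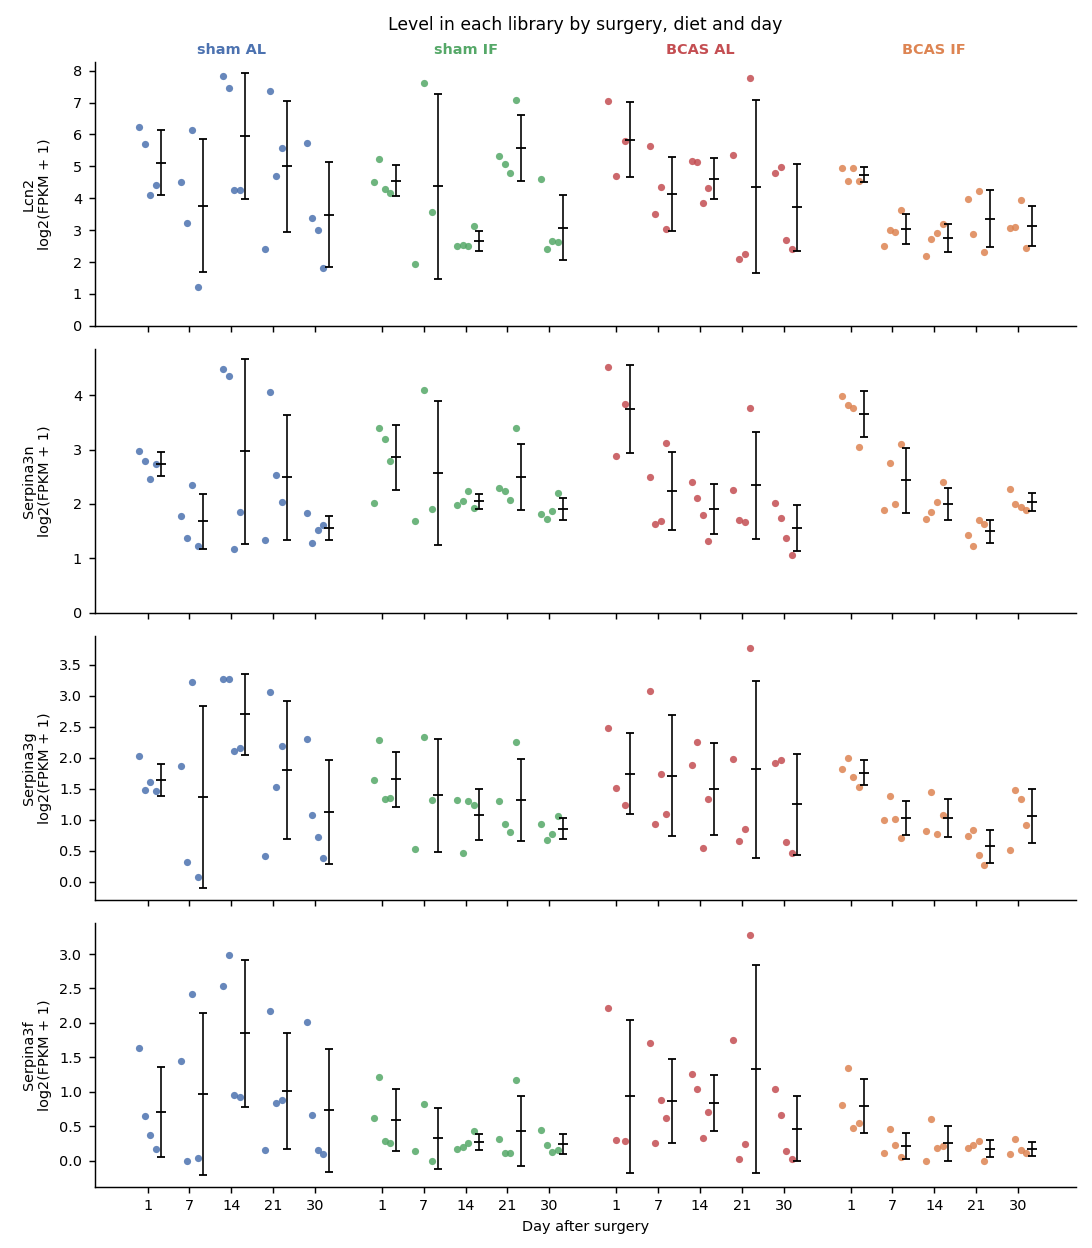
Level of the 4 genes as log2(FPKM + 1) in each of 78 libraries (points), by day after surgery and by surgery and diet (colours); the black bars give the mean ± SD of each group. Single libraries of Lcn2 stand far above their group in sham AL, sham IF and BCAS AL, while BCAS IF ends at 30.2 FPKM, and Serpina3n is high on day 1 after BCAS.

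The mean of Lcn2 was 50.7 ± 64.3 FPKM (SD, n = 20) in sham AL, 31.3 ± 49.2 (n = 19) in sham IF, 38.3 ± 52.3 (n = 19) in BCAS AL and 11.8 ± 8.45 (n = 20) in BCAS IF. The SD was larger than the mean in all but BCAS IF. On the log2(FPKM + 1) scale used for all differences, the SD of Lcn2 within groups was 1.40, against a median of 0.16 over the 15707 genes that reached 1 FPKM in 3 or more libraries. By this spread Lcn2 was rank 12 of them. Serpina3g (SD 0.75) was rank 261, Serpina3n (0.70) rank 320 and Serpina3f (0.69) rank 340. By arm, the SD of Lcn2 within groups was 1.80 in sham AL, 1.60 in BCAS AL, 1.32 in sham IF and 0.58 in BCAS IF, while the median of all genes lay between 0.14 and 0.18 in each. The SD of Serpina3f was 0.94, 0.91, 0.36 and 0.24 in the same order, of Serpina3g 0.96, 0.98, 0.54 and 0.31, and of Serpina3n 0.96, 0.70, 0.65 and 0.37. On this scale the spread of all 4 was thus narrowest in BCAS IF, and the difference in spread was not tested. The scale compresses low levels. In FPKM the SD of Serpina3f was larger than its mean in every arm, BCAS IF included.

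Ordered by mean log2 level, sham AL day 14 was the highest of the 20 groups for Lcn2, Serpina3f and Serpina3g, and BCAS AL day 1 for Serpina3n. The lowest group was sham IF day 14 for Lcn2, BCAS IF day 30 for Serpina3f and BCAS IF day 21 for Serpina3g and Serpina3n. The libraries of the highest and lowest groups did not overlap for any of the 4 genes. These groups were picked as the extremes of 20 by the same values, so the gap is no test. The same count over all genes was not made. Of the 19 pairs of neighbouring groups, none was free of overlap for any of them, so the order between neighbours is not resolved. The share of variance that lay between groups was 39.9% for Lcn2, 34.2% for Serpina3f, 33.1% for Serpina3g and 50.1% for Serpina3n, around the median of 37.3% over all genes.

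Serpina3n, the broadly expressed copy, showed a steadier pattern with day. In BCAS AL it was at 21.8, 6.40 and 13.3 FPKM on day 1, 4.66, 2.10, 2.21 and 7.71 on day 7, 4.27, 3.34, 2.50 and 1.51 on day 14, 3.76, 2.24, 2.18 and 12.5 on day 21, and 3.06, 2.36, 1.58 and 1.09 on day 30. In BCAS IF it was at 14.9, 13.1, 12.7 and 7.23 FPKM on day 1, 2.69, 5.71, 2.98 and 7.64 on day 7, 2.30, 2.62, 3.08 and 4.27 on day 14, 1.70, 1.33, 2.26 and 2.09 on day 21, and 3.85, 3.02, 2.86 and 2.72 on day 30. Day 1 thus held the high libraries after BCAS, with 2 of 16 later libraries above the lowest day 1 library under AL and 1 of 16 under IF. In sham AL it was at 6.83, 5.92, 4.47 and 5.65 FPKM on day 1, 2.45, 1.58, 4.10 and 1.33 on day 7, 21.3, 19.4, 1.27 and 2.60 on day 14, 1.52, 15.6, 4.82 and 3.08 on day 21, and 2.55, 1.42, 1.86 and 2.06 on day 30. In sham IF it was at 3.07, 9.52, 8.19 and 5.93 FPKM on day 1, 2.23, 16.1 and 2.76 on day 7, 2.94, 3.15, 3.69 and 2.79 on day 14, 3.89, 3.71, 3.19 and 9.53 on day 21, and 2.51, 2.31, 2.68 and 3.58 on day 30. After sham surgery the day 1 libraries overlapped more with later ones, since 4 of 16 under AL and 8 of 15 under IF exceeded the lowest of day 1.

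The difference of day 1 minus the mean of the later days in Serpina3n was 1.74 ± 0.44 (SE) in BCAS AL and 1.67 ± 0.39 in BCAS IF, about 3.33 and 3.17 times on the FPKM + 1 scale. In sham AL it was 0.56 ± 0.39 and in sham IF 0.60 ± 0.39. The BCAS AL value was 1.35 without BCAS AL day 1 replicate 1, and the BCAS IF value 1.55 without BCAS IF day 1 replicate 1. Between surgeries on day 1 itself, BCAS minus sham was 1.01 ± 0.53 under AL and 0.80 ± 0.49 under IF. Without BCAS AL day 1 replicate 1 the AL value was 0.63, and without sham IF day 1 replicate 1 the IF value was 0.53.

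Lcn2 on day 1 minus later days was 1.64 ± 0.87 in BCAS AL, 1.67 ± 0.77 in BCAS IF, 0.57 ± 0.77 in sham AL and 0.63 ± 0.78 in sham IF. Single libraries moved it in 3 arms, to 1.035 without BCAS AL day 1 replicate 1, to 0.19 without sham AL day 1 replicate 1 and to 0.32 without sham IF day 7 replicate 1. In BCAS IF the 4 day 1 libraries, at 22.1 to 30.2 FPKM, lay above all 16 later ones, at 3.52 to 17.8. In the other 3 arms between 6 and 10 later libraries lay above the lowest day 1 library. Serpina3g, the cathepsin inhibitor, had the same separation in BCAS IF, with 2.54, 3.00, 2.21 and 1.87 FPKM on day 1 and 0.205 to 1.80 later. Its difference was 0.84 ± 0.41 there and 0.18 ± 0.46 in BCAS AL. The share of all genes whose day 1 libraries lay above all later ones was not counted, so these separations are descriptions. Serpina3f was at 0.751, 1.54, 0.395 and 0.467 FPKM on day 1 in BCAS IF and at 0 to 0.531 later. Its difference was 0.59 ± 0.38 there, 1.79 with a pseudocount of 0.1 FPKM and 2.55 with limma-voom on fragments recovered from the FPKM values. In sham IF it was 0.28 ± 0.38 and 1.45 with limma-voom, and Serpina3g in BCAS IF reached 1.49 with limma-voom. On day 1, BCAS minus sham in Lcn2 was 0.72 ± 1.05 under AL, and 0.12 without BCAS AL day 1 replicate 1, and 0.19 ± 0.97 under IF. In BCAS AL, Serpina3f changed sign from 0.06 to -0.58, and Serpina3g from 0.18 to -0.19, without BCAS AL day 1 replicate 1.

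Serpina3g and Serpina3f had their highest libraries where Lcn2 was high, in the arms fed ad libitum. In sham AL, Serpina3g was at 8.69 and 8.62 FPKM in the day 14 libraries with 228 and 176 FPKM of Lcn2, at 3.31 and 3.45 in the rest of that group, and at 8.30 and 7.34 in the highest libraries of days 7 and 21. Its highest level, 12.6 FPKM, was in BCAS AL day 21 replicate 4, against 2.93, 0.581 and 0.808 in the rest of that group. The same library held the highest Serpina3f, 8.68 FPKM, against 2.36, 0.0191 and 0.190 in its group. Arm means of Serpina3f were 1.59 ± 1.94 FPKM (SD, n = 20) in sham AL, 1.28 ± 2.03 (n = 19) in BCAS AL, 0.336 ± 0.381 (n = 19) in sham IF and 0.284 ± 0.354 (n = 20) in BCAS IF. Those of Serpina3g were 3.16 ± 2.87, 2.72 ± 2.97, 1.58 ± 1.13 and 1.24 ± 0.764 FPKM in the same order. Serpina3n did not share this pattern by diet, with 5.49 ± 6.03, 5.19 ± 5.32, 4.83 ± 3.59 and 4.95 ± 4.08 FPKM.

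The design first asks how arteries differ after carotid stenosis. Over the mean of the 5 days, BCAS minus sham under free feeding was -0.13 ± 0.44 (SE) for Lcn2, -0.17 ± 0.22 for Serpina3f, -0.12 ± 0.24 for Serpina3g and 0.07 ± 0.22 for Serpina3n. Under fasting it was -0.64 ± 0.44, -0.05 ± 0.22, -0.17 ± 0.24 and -0.05 ± 0.22. Without sham IF day 7 replicate 2 the fasting value was -0.32 for Lcn2 and -0.08 for Serpina3g. Under AL, Lcn2 was at -0.36, Serpina3f at -0.30 and Serpina3g at -0.25 without BCAS AL day 21 replicate 4. The signs of Lcn2 and Serpina3n under AL, and of Serpina3f and Serpina3n under IF, turned when some single libraries were left out. Day by day the signs were mixed too: Lcn2 was higher after BCAS on 3 of 5 days and lower on 2 under each diet.

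The design also asks how arteries differ with fasting, separately in sham and in BCAS mice. These comparisons share no libraries with each other, but each shares libraries with those of BCAS against sham. Over the mean of the 5 days, IF minus AL in Serpina3f was -0.68 ± 0.22 after sham surgery and -0.57 ± 0.22 after BCAS, and it was below 0 on 5 of 5 days in each. In Lcn2 it was -0.62 ± 0.44 and -1.13 ± 0.44, below 0 on 3 of 5 days after sham and 5 of 5 after BCAS. The sham value of Lcn2 lay between -0.94 without sham IF day 7 replicate 2 and -0.38 without replicate 1 of that group. In Serpina3g it was -0.47 ± 0.24 and -0.52 ± 0.24, and in Serpina3n 0.09 ± 0.22 and -0.03 ± 0.22, with signs that turned without some single libraries. Without BCAS AL day 21 replicate 4 the difference of Serpina3f after BCAS was -0.44. Serpina3f lay under 1 FPKM in 61 of 78 libraries. It reached 1 FPKM in 7 libraries of sham AL, 7 of BCAS AL, 2 of sham IF and 1 of BCAS IF. It thus entered the fit through the AL arms, so its difference and its signs by day are no test of diet. Over the other settings its difference ran from -1.69 to -0.68 after sham surgery and from -1.59 to -0.57 after BCAS.

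**Figure D3:**
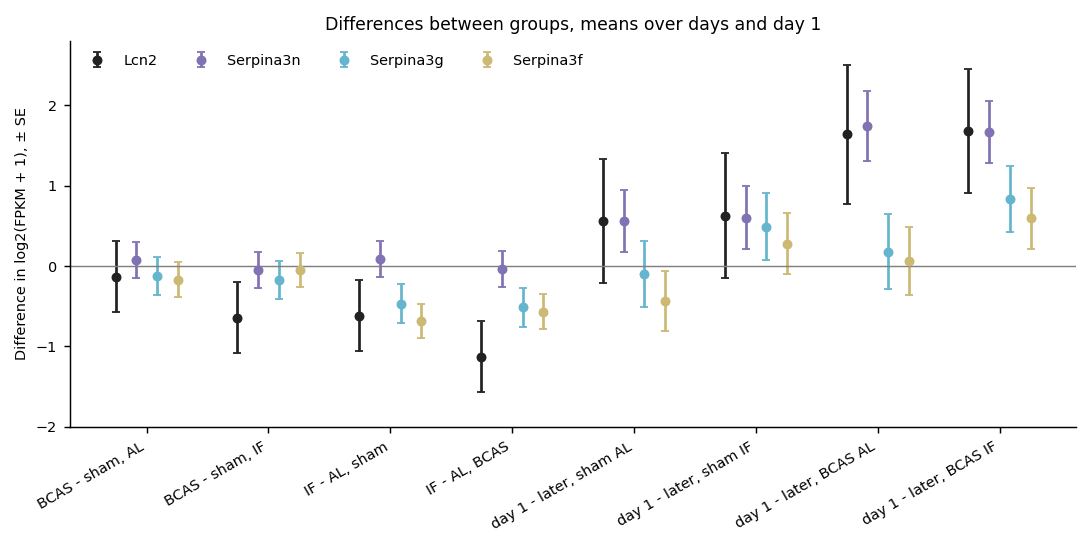
Differences in log2(FPKM + 1) of the 4 genes (points, ± SE) for BCAS minus sham and IF minus AL as the mean of 5 days, and for day 1 minus the mean of later days in each arm. BCAS minus sham lies between -0.64 (Lcn2, IF) and 0.07 (Serpina3n, AL), Lcn2, Serpina3g and Serpina3f lie below 0 for IF minus AL, and Serpina3n lies at 1.74 and 1.67 for day 1 in the BCAS arms.

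By day, the widest diet difference of Lcn2 was on day 14 after sham surgery. Lcn2 was at 228, 176, 17.97 and 18.02 FPKM under AL and at 4.68, 4.78, 4.69 and 7.83 under IF, without overlap, a difference of -3.28 ± 0.97. Serpina3f was at 4.80, 6.91, 0.942 and 0.898 FPKM under AL and 0.127, 0.149, 0.1998 and 0.351 under IF, also without overlap, a difference of -1.58 ± 0.48. Serpina3g differed by -1.62 ± 0.52 and Serpina3n by -0.92 ± 0.49. Day 14 was picked by these same values, and the share of all genes without overlap was not counted. Of the 15707 genes in the fit, 689 had a limma adjusted p under 0.05 between the diets on that day after sham surgery. On day 7 the sign of Lcn2 was the opposite, 0.61 ± 1.05, with 1 of the 3 sham IF libraries at 193 FPKM. The difference between the diets in their BCAS effect was -0.51 ± 0.63 for Lcn2, 0.12 ± 0.31 for Serpina3f, -0.05 ± 0.34 for Serpina3g and -0.12 ± 0.31 for Serpina3n. For Lcn2 it was -0.19 without sham IF day 7 replicate 2.

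The 4 genes varied together from library to library. Over 78 libraries the Pearson correlation of Lcn2 was 0.84 with Serpina3g, 0.79 with Serpina3f and 0.71 with Serpina3n, and 0.87, 0.86 and 0.75 once each group's mean was taken out. Serpina3f and Serpina3g correlated at 0.90, and Serpina3n less with them, at 0.56 and 0.63 (0.71 and 0.64 within groups). These are descriptions over libraries that share groups, and the similar copies Serpina3f and Serpina3g share part of their sequence. Of the 7 libraries over 100 FPKM of Lcn2, 6 were within the 10 highest of Serpina3n and 6 within the 10 highest of Serpina3g. The exception for both was sham IF day 21 replicate 4, which was rank 11 in each. The sham IF library at 193 FPKM of Lcn2 was rank 4 of 78 in Serpina3n and rank 23 in Serpina3f.

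**Figure D4:**
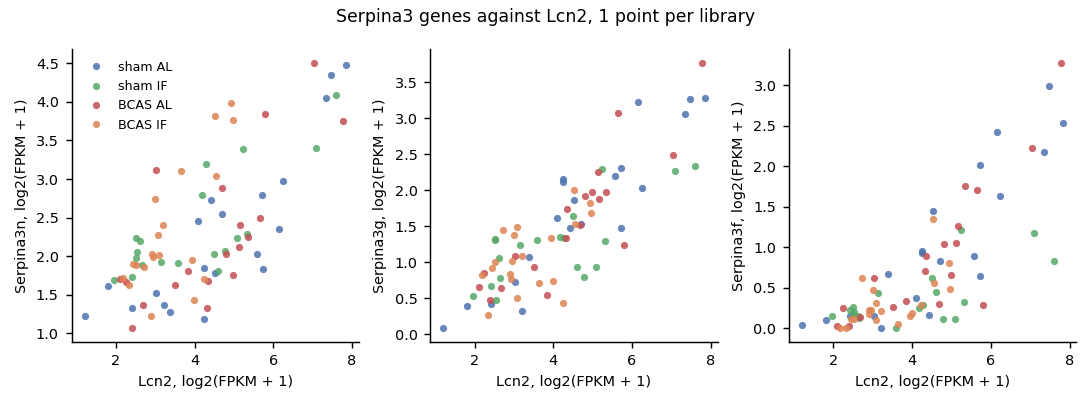
Serpina3n, Serpina3g and Serpina3f against Lcn2, all as log2(FPKM + 1), with 1 point per library coloured by surgery and diet. The points lie along rising bands, with correlations of 0.71, 0.84 and 0.79 over 78 libraries, and the BCAS IF libraries keep to the lower range of Lcn2.

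Among 12452 protein-coding genes, the gene most like Lcn2 was Ackr1, the chemokine receptor of venular endothelium, with a correlation of 0.90 over 78 libraries (0.94 within groups) and levels of 2.55 to 201 FPKM. Cd14, the co-receptor for bacterial lipopolysaccharide, came next at 0.86, and Csf2rb2, a receptor subunit for interleukin 3, stood at 0.84. Ackr1, Cd14 and Csf2rb2 were also among the 5 genes most like Serpina3f and Serpina3g, between 0.81 and 0.88. For Serpina3n, Tnfrsf1a, the main TNF receptor, came first at 0.76 (0.61 within groups). Lrg1, a secreted acute-phase glycoprotein of vessels, stood at 0.74 (0.62 within groups). Lcn2, Il4ra and Map3k6 followed at 0.71, 0.68 and 0.67, and at 0.75, 0.62 and 0.64 within groups. Within groups Lcn2 was thus the highest of these 5. These likenesses are descriptions with no test, over libraries that share groups.

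The tissue label was checked against marker genes, and the smooth muscle, endothelial and pericyte lists were all above 1 FPKM in median. Neutrophils carry Lcn2, and 6 of the 12 neutrophil markers had a median of at least 1 FPKM. S100a9 ran from 2.87 to 69.8 FPKM and Csf3r from 1.00 to 3.05, while Mmp8 and Cxcr2 stayed under 1 FPKM in every library and Cxcr2 was at 0 in 32. The summed level of the list was 10.4 to 100.8 FPKM in sham AL, 13.2 to 117 in sham IF, 5.93 to 87.1 in BCAS AL and 17.9 to 152 in BCAS IF. Its correlation with Lcn2 was 0.31 over 78 libraries and 0.39 within groups, and with Serpina3n 0.18 and 0.35. Of the 7 libraries over 100 FPKM of Lcn2, 5 were within the 14 highest of this sum, at ranks 2, 5, 9, 12 and 14 of 78, and the other two were at ranks 26 and 52. Of the liver list, Alb, the liver's most abundant transcript, and Apoa1 stayed under 1 FPKM in every library. The medians of 3 of its 7 genes were at least 1 FPKM, namely Ttr (6.08), Apoa2 (2.26) and Serpina1b (1.80). Ttr is also on the choroid plexus list. Astrocyte, macrophage and microglia markers were present throughout, with 8 of 8, 8 of 8 and 6 of 6 at a median of at least 1 FPKM. The summed astrocyte markers were 242 to 384 FPKM in sham AL, 256 to 376 in sham IF, 223 to 365 in BCAS AL and 257 to 351 in BCAS IF. Their correlation with Lcn2 was -0.06 and with Serpina3n -0.21. This sum mostly follows Gjb6, with a median of 184 FPKM, before Gfap with 45.2, so it says little about the other markers. Of the fibroblast and meningeal list, 7 of 8 genes had a median of at least 1 FPKM. That sum correlated with Lcn2 at -0.08 and with Serpina3n at -0.18 (-0.17 and -0.30 within groups). The part of these cells in the levels of the 4 genes was not tested beyond these values, and in whole arteries fewer cells of a type and less RNA per cell cannot be told apart. Sequencing depth, 14601572 to 25944175 fragments, correlated with Lcn2 at -0.08. Among the 3 libraries richest in fragments of short genes (0.279% to 0.322%, against at most 0.106% elsewhere), sham AL day 7 replicate 4 also held the lowest Lcn2 and Serpina3g; their part was not tested, and all comparisons were repeated without these libraries.

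The genes around the members were tested across the whole table, from lists that were drawn up with earlier results of these data known. Of 153 genes in 11 lists, 112 were expressed enough to be tested. Many other acute-phase genes were hardly present: Saa1, Saa2, Orm1, Crp and Fga stayed under 1 FPKM in every library, and Saa3 reached 1.07. Il6, which encodes the main inducing cytokine, reached at most 0.721 FPKM, Osm 0.395 and Tnf 0.868. Of the Lcn2 receptors, Slc22a17 was at 24.6 to 38.3 FPKM, while Lrp2 reached at most 0.0658 FPKM. Mc4r, also described as a receptor, reached 0.440. None of the 3 tested receptors and partners (Slc22a17, Mmp9, which binds lipocalin 2, and Bdh2) passed in the BCAS or diet comparisons over 5 days. Of the proteases that Serpina3 proteins inhibit, Gzmb and Ctsg were too low to test, at most 0.933 and 0.954 FPKM.

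Between BCAS and sham, hardly any of these genes moved. Under AL, 2 of 112 genes rose over the 5 days, where 0.821% of all genes rose and 0.987% passed in either direction. Under IF, where 0.758% of all genes passed, 0 did in limma, 2 did with limma-voom, and 18 had an unadjusted p under 0.05. Itih4, an acute-phase plasma protein, was at 1.40 ± 0.300 FPKM (SD, n = 19) after BCAS and 0.985 ± 0.259 (n = 20) after sham, a log2 difference of 0.27 ± 0.06 (SE) with a limma adjusted p of 0.019. Tm4sf1, an endothelial membrane protein on the reactive astrocyte list, was at 125 ± 10.7 and 112 ± 13.6 FPKM in the same groups, a difference of 0.16 ± 0.04 with a limma adjusted p of 0.021. Tm4sf1 no longer passed without BCAS AL day 1 replicate 3. The median difference over the 112 genes was 0.03, beside 0.00 over all genes.

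Fasting moved more of them. After sham surgery 24 of 112 genes were lower and 11 higher under IF, where 11.9% and 11.8% of all genes were (23.7% in all). After BCAS 20 were lower and 10 higher, where 11.9% and 11.2% of all genes were (23.1% in all). In the list of the IL-6 family and STAT3, 7 of 15 tested genes fell and 1 rose after sham surgery, and also 7 and 1 after BCAS. Bcl3, a nuclear partner of NF-kB that STAT3 induces, was at 8.46 ± 2.98 FPKM (SD) in the 20 sham AL libraries and at 5.03 ± 1.33 in the 19 of sham IF. It fell by 0.63 ± 0.10 (SE) after sham surgery and by 0.76 ± 0.10 after BCAS, with limma adjusted p-values of 2.2e-06 and 2.5e-08. Cebpb, the acute-phase transcription factor, was at 56.8 ± 14.1 FPKM in sham AL and 39.0 ± 6.21 in sham IF and fell by 0.51 ± 0.09, and by 0.37 ± 0.09 after BCAS. Socs3, the feedback inhibitor of STAT3 signalling, fell by 0.34 ± 0.07 and 0.32 ± 0.07, and Stat3 itself by 0.19 ± 0.03 and 0.15 ± 0.03. Osmr, the oncostatin M receptor, fell by 0.34 ± 0.05 and 0.29 ± 0.05, and the kinase gene Pim1 by 0.23 ± 0.07 and 0.42 ± 0.07. The genes that rose were Lifr after sham surgery, by 0.12 ± 0.04, and Jak2 after BCAS, by 0.19 ± 0.04.

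In the list of IL-1, TNF and NF-kB, 10 of 17 tested genes fell after sham surgery and 7 after BCAS, and none rose. Il1b fell by 0.32 ± 0.08 in both, from 0.661 ± 0.465 to 0.295 ± 0.194 FPKM (SD) after sham surgery and from 0.654 ± 0.365 to 0.318 ± 0.217 after BCAS. The transcription factor subunits Nfkb1 and Nfkb2 fell by 0.17 ± 0.03 and 0.14 ± 0.04 after sham surgery and by 0.14 ± 0.03 and 0.16 ± 0.04 after BCAS. Sele, the endothelial adhesion molecule E-selectin, fell by 0.43 ± 0.11 after sham surgery, from 0.569 ± 0.690 to 0.0969 ± 0.147 FPKM. Il1b and Sele had means under 1 FPKM in each arm given, so they may have entered the fit mainly through AL libraries. Such an entry favours a fall under IF. How many libraries of each arm reached 1 FPKM was not counted for them, so their 2 falls carry this limit. The neutrophil chemokine Cxcl1 fell by 0.69 ± 0.21 after BCAS, and its fall of 0.58 ± 0.21 after sham surgery was lost when any 1 of 5 libraries was left out. Of 11 tested glucocorticoid targets 4 rose, 1 fell and 6 did not pass after sham surgery, and 7 rose, 1 fell and 3 did not pass after BCAS. Per1, also a clock gene, rose by 0.59 ± 0.10 and 0.61 ± 0.10, and Fkbp5 rose after BCAS by 0.45 ± 0.12. The lower one was Cdkn1a, the cell cycle inhibitor p21, which fell by 0.58 ± 0.09 and 0.86 ± 0.09. Of 17 interferon response genes 3 rose after sham surgery and 1 after BCAS, and Tap1, a peptide transporter, rose in both by 0.22 ± 0.06 and 0.20 ± 0.06. Hamp, the iron hormone hepcidin, fell by 0.56 ± 0.18 after sham surgery. Its fall of 0.48 ± 0.18 after BCAS was lost when any 1 of 23 libraries was left out. Of 9 tested acute-phase genes Lbp alone rose, after sham surgery, and none passed after BCAS. Of 23 tested genes of the reactive astrocyte list, 4 fell and 1 rose after sham surgery and 4 fell after BCAS. Among them the small heat shock protein gene Hspb1 fell by 0.44 ± 0.09 and 0.52 ± 0.09. Over all genes 23.7% passed in either direction after sham surgery and 23.1% after BCAS. The interferon response, acute-phase and reactive astrocyte lists had no larger share of calls than this. Ctsb, a lysosomal cathepsin, was the only one of 4 tested proteases to pass, with a rise of 0.10 ± 0.03 after BCAS, and none of the 4 tested other clade A serpins did. None of the 112 genes passed for the difference between the diets in their BCAS effect, in limma or in limma-voom, where 0.0127% of all genes passed in limma, and 2 of the 112 had an unadjusted p under 0.05. Without any 1 library, 28 of the 35 calls after sham surgery and 24 of the 30 after BCAS held.

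**Figure D5:**
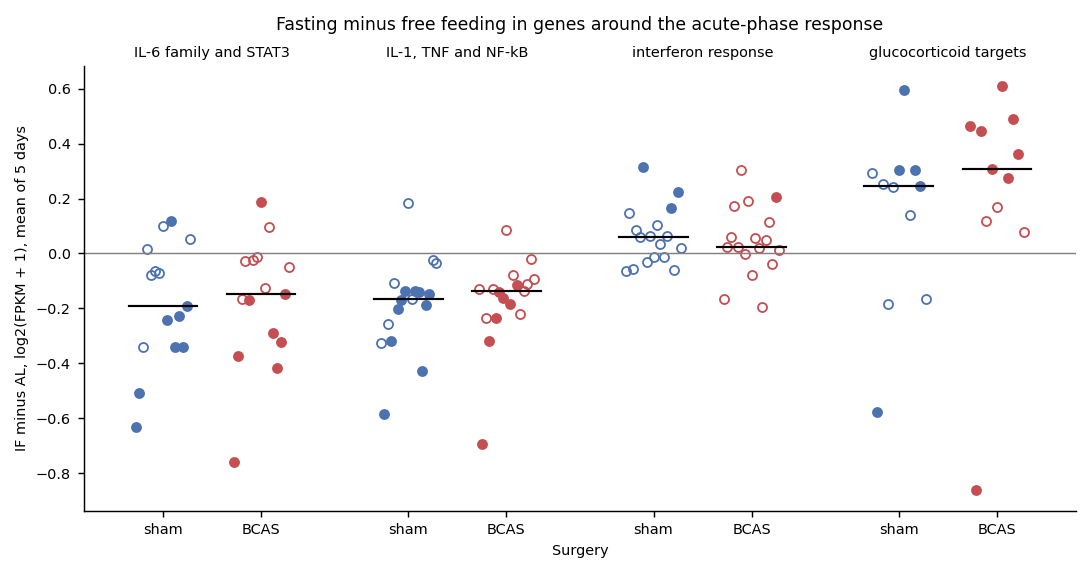
IF minus AL in log2(FPKM + 1), mean of 5 days, for each tested gene of 4 lists after sham surgery (blue) and BCAS (red); filled points passed an adjusted p under 0.05 and black lines are list medians. The medians of the IL-6 and NF-kB lists lie at -0.19, -0.15, -0.17 and -0.14, and those of glucocorticoid targets at 0.25 and 0.31.

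On day 1 after BCAS, several partners were higher than on later days. In BCAS IF 10 of 112 genes rose and 1 fell, where 1.1% of all genes rose and 1.67% passed in either direction. Lrg1 was at 95.6 ± 9.22 FPKM (SD, n = 4) on day 1 and 37.8 ± 17.7 (n = 16) later, a rise of 1.44 ± 0.30 (SE) with a limma adjusted p of 0.0037. Socs3 was at 8.31 ± 1.23 and 4.35 ± 0.820 FPKM, a rise of 0.81 ± 0.13, and Nfkb2 rose by 0.43 ± 0.07. The calls of Lrg1, Socs3 and Nfkb2 held without any 1 library, while those of Lif, Osmr, Pim1, Tnfrsf1a, Icam1 and Timp1 (higher) and Amigo2 (lower) did not. In BCAS AL 5 rose, Nfkb2 by 0.40 ± 0.07, Timp1, Pdk4, Socs3 and Cdkn1a, where 0.853% of all genes rose and 1.31% passed. Without BCAS AL day 1 replicate 1, 1 of the 112 genes was called there. In sham AL 5 of 112 genes passed, 2 higher and 3 lower, a smaller share than the 8.12% of all genes. Lrg1 rose there by 1.54 ± 0.30 with a limma adjusted p of 0.0011, the only one of the 5 calls to hold without any 1 library. In sham IF, where 0.331% of all genes passed, 0 of 112 did in limma, 1 did with limma-voom, and 17 had an unadjusted p under 0.05. Between BCAS and sham on day 1 itself, 2 of 112 genes rose under AL (Pdk4 and Tm4sf1), where 0.376% of all genes passed, and both calls were lost without some single libraries of those groups. Under IF, where 0.00637% of all genes passed, 0 did in limma and in limma-voom, and 11 had an unadjusted p under 0.05. Between the diets on day 1, 4 of 112 genes rose under IF after sham surgery (Lifr, Per1, Pdk4 and H2-T23), where 3.67% of all genes passed, and Cdkn1a and Hspb1 fell after BCAS, where 4.37% did.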

How the data were processed

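RNA was extracted from cerebral arteries with an RNeasy kit and sequenced from 2 ug of total RNA, per the labels' protocols. The authors deposited 1 table of FPKM values for 54532 genes in 78 libraries, with a gene length for each, per the file headers. The submitters' processing notes list DESeq 1.10.1 but not its use; aligner, counter, build and annotation are not given in the sources used here. Among the identifiers, 54409 were in GENCODE M21, 98.3% of these with the same GRCm38 coordinates. FPKM times length was a whole multiple of 1 step (tolerance 0.05) for 100% of values under 1000 fragments, which gave a depth of 14601572 to 25944175 fragments per library.

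Groups came from the treatment labels. Separate titles alone mark the libraries as replicates, so p-values measure only the spread between them, which may be technical. No 2 libraries were identical. FPKM are not counts, so limma 3.58.1 (trend, robust, statmod 1.5.0, R 4.3.3) was run on log2(FPKM + 1), which understates changes of low genes. Genes that reached 1 FPKM in 3 or more libraries entered the fit (15707), 20 group means shared 1 spread, and two-sided p-values were adjusted by Benjamini-Hochberg over all genes of each of 13 contrasts, with a threshold of 0.05. The 16 single-day contrasts after day 1 came from the same fit and adjustment and are described. In simulated data on 15707 genes, with 100 changed genes per size, BCAS minus sham under AL recovered 94% of changes of 0.5 and 99% of changes of 1 on the log2 scale. The members and lists were chosen with earlier results of these data known. Named genes are the members, list genes past the threshold (or those with the smallest p), partners of a member and the 5 genes most correlated with each member. A result that this rule would name is not reported here. Alternatives were limma-voom on recovered fragments, no filter, a pseudocount of 0.1, only the compared groups, leaving out the 3 libraries richest in short genes, and leaving out each library. Python 3.11.15, numpy 2.4.6 and pandas 2.3.3 were used for descriptions.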

Additional observations from a re-analysis of the deposited data

Results flagged for a closer look

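In 72 sets of 4 libraries (a gene in a group), 4 had 1 library far from the other 3 by Dixon's test at the 95% level, which chance alone does in about 1 of 20. Lcn2 was at 7.83 FPKM in sham IF day 14 replicate 4, against 4.68 to 4.78 in the rest of its group. Lcn2 was at 23.3 FPKM in sham IF day 30 replicate 1, against 4.34 to 5.30. Serpina3n was at 9.53 FPKM in sham IF day 21 replicate 4, against 3.19 to 3.89, in the library that also held 135 FPKM of Lcn2. Serpina3g was low, at 0.386 FPKM, in sham IF day 14 replicate 2, against 1.35 to 1.502. All 4 were in sham IF, which was not tested. The sets share libraries and the 4 genes varied together, so the number of flags is a description only.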

How the results depend on the processing

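No paired analysis was possible because the labels share no replicate numbers between groups. Counts of list genes past the threshold over the 5 days held within 1.5 times under the other settings for IF against AL (25 to 34 after BCAS, 28 to 35 after sham surgery) and for BCAS against sham under AL (2 to 3). For BCAS against sham under IF the count of 0 became 2 with limma-voom, 1 with only the compared groups and 1 without the 3 libraries richest in short genes. On day 1, BCAS against sham under AL gave 4 with limma-voom, 5 without a filter and 0 with only the compared groups, in place of 2. IF against AL on day 1 gave 2 and 0 in place of 4 after sham surgery, without a filter and with only the compared groups, and 1 in place of 2 after BCAS without a filter. Day 1 against later days gave 3 and 1 in place of 5 in sham AL, without a filter and with only the compared groups, and 1 in place of 0 in sham IF with limma-voom. The cause was not tested. Leaving out 1 library at a time gave 1 to 2 calls for BCAS against sham under AL, 0 to 1 under IF, 0 to 2 and 0 to 0 on day 1, 31 to 36 and 27 to 34 for IF against AL after sham surgery and BCAS, and 1 to 3 and 1 to 7 on day 1. Day 1 against later days gave 1 to 9 in sham AL, 0 to 3 in sham IF, 1 to 7 in BCAS AL (1 without BCAS AL day 1 replicate 1) and 6 to 14 in BCAS IF (6 without BCAS IF day 1 replicate 1 or 4). The interaction gave 0 throughout. The comparison of diets in their BCAS effect uses all libraries already, so the setting with only the compared groups was not run for it. Depth limits Serpina3f and Serpina3g most.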
